A study of Arabidopsis thaliana with 12 samples.

Results

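The plastid sugar-phosphate translocators of Arabidopsis thaliana were followed in dry and stratified seeds, in wild-type plants and in the line labelled atalkbh1a1b. The 6 genes, GPT1, GPT2, PPT1, PPT2, TPT and XPT, were taken by locus from the 32833 loci of the expression table, and all 6 were found. They were chosen by the level of GPT2, which was lower in the mutant-labelled seeds after stratification, so the stratified levels behind this choice are given as a description with no test. The series held 12 messenger RNA libraries of seed, all labelled ecotype Col-0, in 4 groups of 3. Wild-type and mutant-labelled seeds were sampled dry (day 0, labelled control) or after 2 days submerged in sterile water at 4 °C, the cold treatment called stratification. The labels name no allele for either AtALKBH1A or AtALKBH1B, which the series title calls demethylases of N6-adenine in DNA, and do not say whether the line was backcrossed. No group was kept in water without cold, so cold, water uptake and time cannot be told apart in any stratification difference.

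These translocators sit in the inner envelope membrane of plastids and exchange a phosphorylated sugar or acid for inorganic phosphate. GPT1 and GPT2 carry glucose 6-phosphate, the form in which plastids without photosynthesis take up carbon for starch, fatty acids and the oxidative pentose phosphate pathway. PPT1 and PPT2 carry phosphoenolpyruvate, the precursor of the shikimate pathway and a carbon source for fatty acids. TPT exports triose phosphate made by photosynthesis in leaves, and XPT carries pentose phosphates. In oilseed embryos such carriers supply the plastid during filling, and after imbibition the plastids of the seed differentiate anew.

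GPT1 (AT5G54800, chr5:22261134-22263936, plus strand) and GPT2 (AT1G61800, chr1:22824414-22826902, plus strand) were the closest pair of the family. Their coding sequences, read from RefSeq's TAIR10.1 assembly, matched at 844 of 1136 aligned bases (74.3%), against 60.3% to 66.2% for the other 14 pairs. The longest run of identical bases between the transcripts of GPT1 and GPT2 was 20 bases. The stretch that holds it, coding bases 670 to 718 of both genes, is shown because it is where a read could least be told apart. The stretch lies at chr5:22262459-22262507 for GPT1 and at chr1:22825586-22825634 for GPT2, both on the plus strand, and capitals mark the shared run.
GPT1: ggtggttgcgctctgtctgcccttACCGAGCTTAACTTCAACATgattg
GPT2: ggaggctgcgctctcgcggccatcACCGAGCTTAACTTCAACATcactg
Bases differ on either side of the run. How reads that match several loci were counted is not given in the sources used here. Outside the family, the closest locus to GPT2 was AT4G03950, identical at 83.6% of 226 aligned bases. It was at 0.159 RPKM or less in every library, RPKM being reads per kilobase of gene, scaled to the depth of each library.

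The 250 bases before the annotated start of GPT1 and GPT2 are shown because these close copies had unlike levels after stratification, as given below. They were searched on both strands for 9 short motifs. TTGAC is the core bound by WRKY factors, TATAAA the letters of a TATA box and CATGCA the core of the RY element of seed genes. ACGTG is the core bound by many bZIP factors (its palindrome CACGTG, the G-box, contains it), and CCGAC is bound by CBF factors. TTATCC is known as a sugar-repressive element, GATAAG is the letters of an I-box, and AAACCCTA is a telo-box. Capitals mark the matches, on either strand, in chr5:22260884-22261133 (GPT1) and chr1:22824164-22824413 (GPT2), both read on the plus strand.
GPT1 promoter: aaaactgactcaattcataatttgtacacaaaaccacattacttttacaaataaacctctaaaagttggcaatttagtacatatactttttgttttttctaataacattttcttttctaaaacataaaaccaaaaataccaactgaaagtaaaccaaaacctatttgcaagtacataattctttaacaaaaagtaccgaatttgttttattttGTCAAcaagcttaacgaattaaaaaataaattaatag
GPT2 promoter: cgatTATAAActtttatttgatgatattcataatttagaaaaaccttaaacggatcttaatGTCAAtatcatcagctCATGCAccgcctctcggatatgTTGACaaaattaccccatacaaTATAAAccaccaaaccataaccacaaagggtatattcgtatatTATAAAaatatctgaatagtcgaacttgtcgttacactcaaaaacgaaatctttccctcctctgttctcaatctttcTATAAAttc
GPT1 held 1 match, to TTGAC. GPT2 held 2 matches to TTGAC, 4 to TATAAA and 1 to CATGCA. Of 27443 promoter windows of the same length, 44.9% held TTGAC, 47.3% held TATAAA and 8.43% held CATGCA. PPT1 also held 1 TTGAC, and XPT held 2 TATAAA. A match is a run of letters and not a shown binding site.

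Depth, from the steps between low RPKM values, ran from 17.8 to 23.0 M reads per library. Nuclear ribosomal RNA took 3.05% to 29.3% of the reads and was over 10% in 4 libraries, namely mutant-labelled dry 2, wild-type stratified 3, and mutant-labelled stratified 1 and 3. Wild-type stratified library 3 stood apart: its r with libraries 1 and 2 of its group was 0.916 and 0.890 over genes, against 0.981 between those 2. With mutant-labelled stratified libraries 1 to 3 its r was 0.986, 0.953 and 0.98. Mutant-labelled stratified library 2 had an r of 0.957 and 0.949 with the others of its own group. Of the loci the general account of these data assigns to the mutated genes, AT5G01780 had 166 to 319 reads in wild-type libraries and 7 to 23 in mutant-labelled ones. AT1G11780 was at 4.41 RPKM or more in all 12 libraries, and the line is called mutant-labelled throughout. All 8 seed markers were detected in every group. Their summed level was 76823 to 104864 RPKM in dry libraries. It was 12633, 9885 and 42535 RPKM in wild-type stratified libraries 1 to 3 and 24584, 31079 and 13225 in mutant-labelled ones. The library with the lowest GPT2 held the most seed marker RNA in the wild-type stratified group and the least in the mutant-labelled stratified group. Of 9 endosperm and seed coat markers, NAC025 was at 0 in all libraries, and 2 to 6 of the 9 reached 1 RPKM in a group. Their sum was 1859 to 2746 RPKM in wild-type dry and 613 to 1332 in wild-type stratified libraries. In mutant-labelled libraries it was 1683 to 2369 dry and 468 to 766 stratified. EPR1 was the largest part of every sum, at 1681 to 2743 RPKM in dry and 314 to 1272 in stratified libraries. MAN7, MAN2 and MUM4 went the other way, each higher in every stratified than in every dry library of its genotype, and MAN6 overlapped. EXPA2, an expansin of the endosperm in germinating seeds, was at 0.221 RPKM or less in dry libraries. After stratification it was at 210, 268 and 47.0 RPKM in the wild type and at 53.8, 101 and 15.4 in mutant-labelled seeds. The 7 leaf markers summed to 25.1 to 25.8 RPKM in wild-type dry, 88.2 to 391 in wild-type stratified, 12.3 to 16.4 in mutant-labelled dry and 50.1 to 108 in mutant-labelled stratified libraries. RBCS1A, the small subunit of Rubisco, made up most of the stratified sums, at 232, 371 and 76.8 RPKM in the wild type and 87.0, 89.9 and 43.7 in mutant-labelled seeds. The other leaf markers did not all follow it: PSBO1, for example, was at 1.67, 1.39 and 0.854 RPKM in wild-type stratified and at 1.83, 1.73 and 0.782 in mutant-labelled stratified libraries. The part of these marker and ribosomal RNA levels in the differences below was not tested. In whole seeds, fewer cells of a type and less RNA per cell cannot be told apart.

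In dry seeds the family was mostly GPT1. After stratification GPT2 became its most abundant member in the wild type but not in the mutant-labelled seeds, while PPT1 and XPT rose in both genotypes, TPT was low and PPT2 had no read. The summed level of the 6 genes was 32.6 ± 1.44 RPKM (SD, n = 3) in wild-type dry and 26.4 ± 4.17 in mutant-labelled dry seeds. It was 195 ± 46.3 RPKM in wild-type stratified seeds, and 86.4 ± 28.1 in mutant-labelled stratified seeds. The lowest wild-type stratified library, at 145 RPKM, lay above the highest mutant-labelled one, at 111. That gap is part of the choice of the members, through GPT2.

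**Figure D1:**
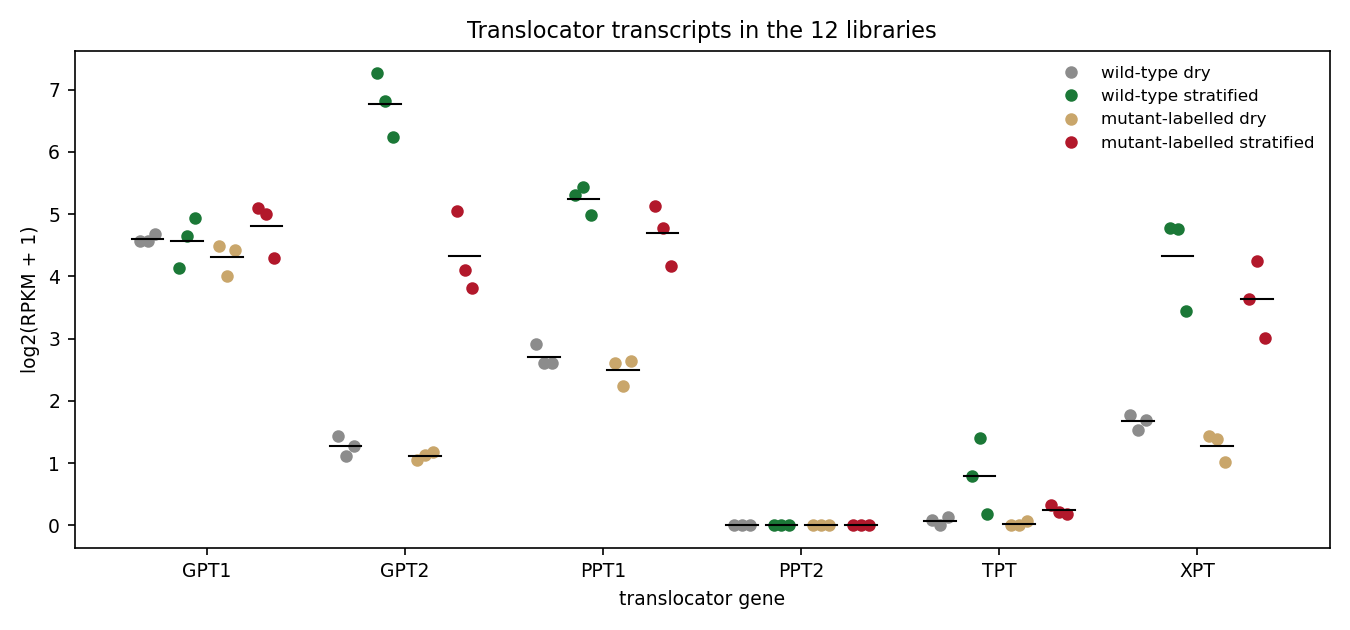
Level of each translocator in each library as log2(RPKM + 1), vertical axis, with 1 point per library and a bar at the mean of each group of 3. GPT2 lies below 2 on this scale in all dry libraries and between 6 and 8 in the wild-type stratified ones, GPT1 stays between 4 and 6 in all 12, and PPT2 is at 0.

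GPT1, without which pollen and embryo sacs do not develop normally, had overlapping levels in dry and stratified seeds. Its level was 22.7, 22.8 and 24.7 RPKM in the wild-type dry libraries 1 to 3, and 16.6, 24 and 29.6 in the wild-type stratified ones. The mutant-labelled libraries held 21.5, 15.1 and 20.5 RPKM dry, and 33.4, 31.1 and 18.7 stratified. The lowest value, in mutant-labelled dry library 2, and the highest, in mutant-labelled stratified library 1, were both in the mutant-labelled line, and each value rested on 501 to 1384 reads. With limma on log2(RPKM + 1) and Benjamini-Hochberg adjustment over 15145 genes, stratification changed GPT1 by -0.04 ± 0.29 (log2, SE) in the wild type, with an adjusted p of 0.915. In mutant-labelled seeds the limma difference was 0.49 ± 0.29, with an adjusted p of 0.148. These calls depend on the scale, because most genes moved up: the median change of all genes tested was 0.64 in the wild type and 0.50 in mutant-labelled seeds. When the library medians were aligned, limma called GPT1 lower in the wild type, by -0.61 at an adjusted p of 0.0204, and in mutant-labelled seeds its change was 0.02. In that fit 36.7% of all genes were called lower in the wild type. Without mutant-labelled stratified library 3, the one with 29.3% ribosomal RNA, GPT1 was called higher in mutant-labelled seeds, by 0.74 at an adjusted p of 0.0152 in limma. There the median of all genes was 0.73 and 54.2% were called higher, so GPT1 lay near the background.

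GPT2, the copy whose transcript is known in leaves to answer to sugar and to high light, was scarce in dry seeds. It was at 1.70, 1.15 and 1.43 RPKM in the wild-type dry libraries and at 1.07, 1.19 and 1.25 in the mutant-labelled dry ones, from 35 to 69 reads each. In stratified wild-type seeds it was at 153, 112 and 74.5 RPKM, and in stratified mutant-labelled seeds at 32.3, 16.2 and 13.0. The 2 stratified groups did not overlap: the lowest wild-type library, number 3, was 2.30 times the highest mutant-labelled one. Every stratified library also lay far above every dry library of its genotype. The mean ratio of stratified to dry was 79.3 in the wild type (113 ± 39.1 against 1.43 ± 0.274 RPKM, SD, n = 3). For mutant-labelled seeds the ratio was 17.5 (20.5 ± 10.4 against 1.17 ± 0.0915 RPKM). On the scale of log2(RPKM + 1), where a change from a low level comes out too small, the stratification difference was 5.50 ± 0.32 (SE) in the wild type. That was the rank 52 from the top among the 15145 genes. In mutant-labelled seeds it was 3.21 ± 0.32, at rank 339.

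Between the stratified groups GPT2 was 5.52 times higher in the wild type, and the log2 difference, mutant-labelled minus wild-type, was -2.45 ± 0.32 (SE). It was the rank 2 from the bottom of all genes tested in that comparison, which is why the family was chosen. Of all genes tested, 0.211% (32) were called there in limma at an adjusted p under 0.05, with 2799 at an unadjusted p under 0.05, and no member was tested. The difference between the 2 stratification responses of GPT2 was -2.29 ± 0.45, given without a test for the same reason. Leaving out wild-type stratified library 3, the lowest of its group, made the stratified genotype difference -2.72. With the stratified libraries of over 10% ribosomal RNA alone it was -1.80, and with those of up to 10% alone it was -2.94. The value for over 10% compares 1 wild-type with 2 mutant-labelled libraries, and that for up to 10% compares 2 with 1, a lone library being assumed to vary like the other groups. In dry seeds, which the choice did not use, GPT2 differed between genotypes by -0.16 ± 0.32, with an adjusted p of 1 and an unadjusted p of 0.627 in limma.

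**Figure D2:**
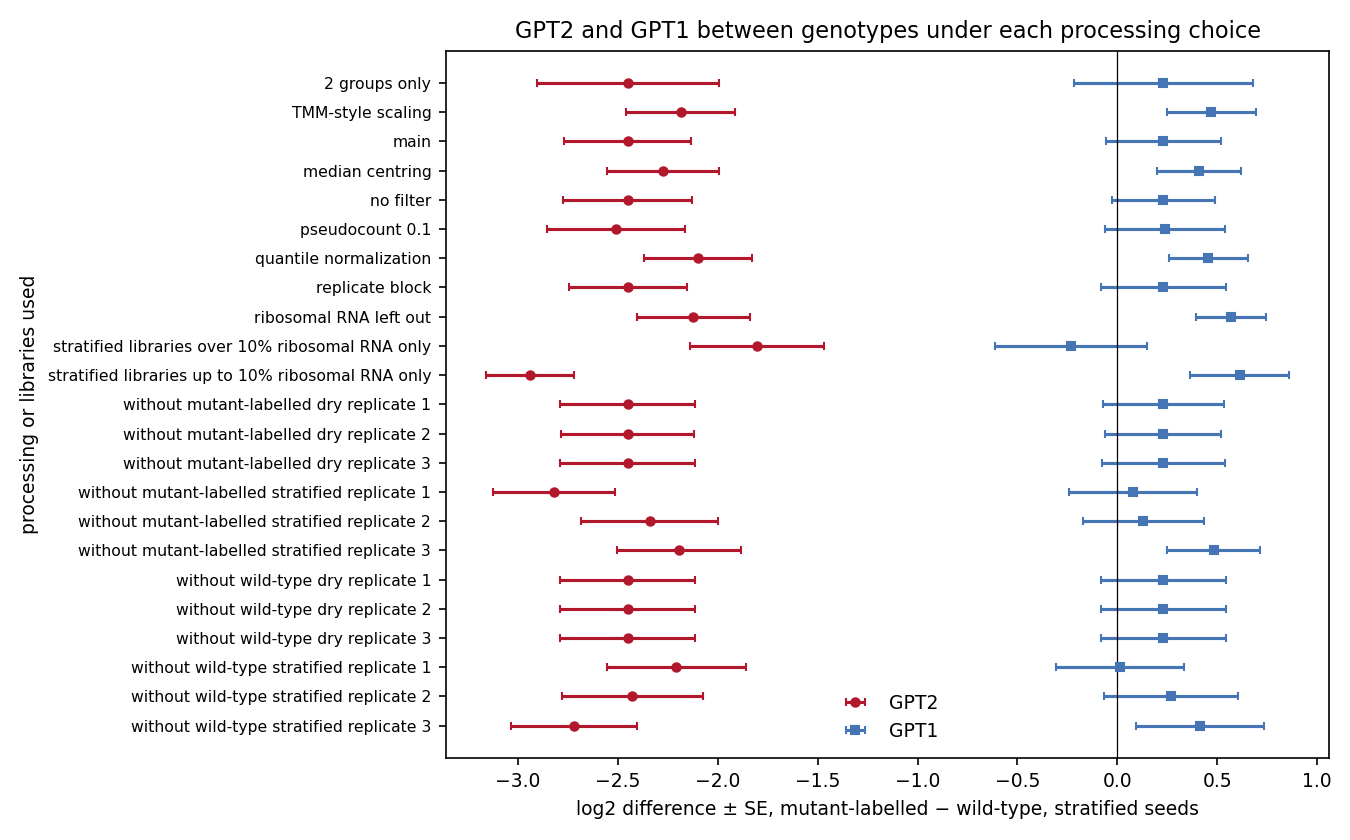
Log2 difference between mutant-labelled and wild-type stratified seeds (horizontal axis, with its SE as bars) for GPT2 and GPT1 under each processing choice or set of libraries (vertical axis). GPT2 lies between -2.94 and -1.80 in every line, and GPT1 between -0.23 and 0.61, on both sides of 0.

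The balance of the 2 glucose 6-phosphate carriers, read in the same library, does not change when a whole library is multiplied by a factor. Quantile normalization is not a scaling of that kind. The stratified ratios contain the GPT2 levels behind the choice of the family and are given as a description. GPT2 over GPT1 was 0.0497 to 0.0786 in the 6 dry libraries. In the wild-type stratified libraries it was 9.22, 4.67 and 2.52, and in the mutant-labelled stratified ones 0.968, 0.522 and 0.696. GPT2 thus outweighed GPT1 in all 3 wild-type stratified libraries and in none of the mutant-labelled ones. Of the summed RPKM of the family, GPT2 made up 4.36% in wild-type dry and 4.53% in mutant-labelled dry seeds, and 56.9% in wild-type stratified and 23.3% in mutant-labelled stratified seeds. GPT1 made up 71.7% and 72.1% of the family in the dry groups, then 13.0% and 32.4%.

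**Figure D3:**
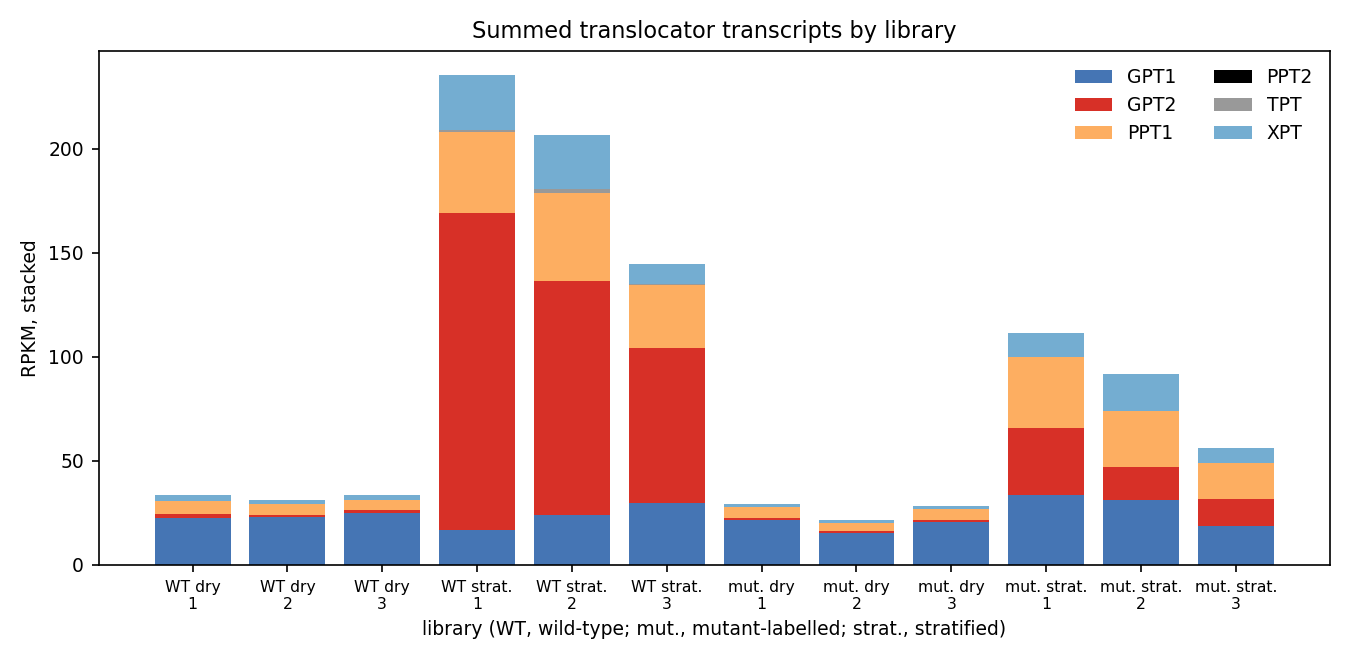
Stacked RPKM of the translocators (vertical axis) in each of the 12 libraries (horizontal axis). Dry libraries sum to between 21.6 and 33.6 RPKM and are mostly GPT1, while GPT2 is the largest block in the 3 wild-type stratified libraries, at 51.5% to 64.9% of the sum.

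PPT1 (AT5G33320, named CUE1 in RefSeq after a mutant with pale leaves and dark veins) is the phosphoenolpyruvate carrier that was detected. It was at 6.50, 5.12 and 5.10 RPKM in wild-type dry and at 38.8, 42.5 and 30.6 in wild-type stratified libraries. In mutant-labelled seeds it was at 5.11, 3.70 and 5.22 RPKM dry and 34.0, 26.6 and 17.0 stratified. Dry and stratified libraries did not overlap in either genotype. Limma gave a rise of 2.54 ± 0.27 (log2, SE) in the wild type, with an adjusted p of 4.4e-07, and of 2.2 ± 0.27 in mutant-labelled seeds, with an adjusted p of 4.13e-06. As ratios of means these were 6.69 and 5.53. In dry seeds the genotypes differed by -0.22 ± 0.27, at an adjusted p of 1 in limma. In stratified seeds the difference was -0.55 ± 0.27, untested, and the groups overlapped. PPT1 shares 66 exon bases with AT5G33330 on the other strand, a locus at 0.0240 RPKM or less in every group mean. It also matches the pseudogene AT2G26220 at 94.7% of 113 bases, so reads from that stretch are uncertain.

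PPT2 (AT3G01550), the other phosphoenolpyruvate carrier, had 0 reads in all 12 libraries. With 3 reads as the limit that a count of 0 allows, its level was at most 0.107 RPKM in the shallowest library, by counting error alone.

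XPT (AT5G17630), the pentose phosphate carrier, was also higher after stratification, from a lower start than PPT1. It was at 2.43, 1.91 and 2.24 RPKM in wild-type dry libraries and at 26.5, 26.1 and 9.87 in wild-type stratified ones. The mutant-labelled libraries had 1.69, 1.61 and 1.02 RPKM dry and 11.4, 18 and 7.07 stratified. Stratified libraries were above all dry ones, and wild-type stratified library 3 lay within the mutant-labelled stratified range. Limma gave a rise of 2.66 ± 0.35 in the wild type, with an adjusted p of 4.13e-06, and of 2.35 ± 0.35 in mutant-labelled seeds, with an adjusted p of 2.65e-05. The ratios of means were 9.49 and 8.42. In dry seeds the difference between genotypes was -0.39 ± 0.35 with an adjusted p of 1 in limma, and in stratified seeds it was -0.70 ± 0.35, untested. The locus overlaps AT5G17640 on the other strand by 28 exon bases (1.72% of its exons) and the noncoding AT5G02755, at 0 in these libraries, by 296. AT5G17640 was at 14.3 RPKM in wild-type stratified seeds. The library kit keeps strand, but whether counting used it is not given in the sources used here.

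TPT (AT5G46110, named APE2 in RefSeq), the carrier of leaf photosynthesis, was barely present. It had 3, 0 and 4 reads in wild-type dry libraries and 0, 0 and 2 in mutant-labelled dry ones. In wild-type stratified libraries it had 39, 81 and 7 reads (0.737, 1.64 and 0.135 RPKM), and in mutant-labelled stratified ones 13, 8 and 7 (0.247, 0.159 and 0.138 RPKM). Libraries 1 and 2 of the wild-type stratified group were the high ones, and library 3 had 7 reads, as did mutant-labelled stratified library 3. RBCS1A, the leaf marker given above, was also highest in wild-type stratified libraries 1 and 2, and its part in the TPT values was not tested. TPT did not reach 1 RPKM in 3 libraries and so was not tested. In a fit without that filter limma gave 0.72 ± 0.22 for wild-type stratification, at an adjusted p of 0.0171, and 0.22 ± 0.22 in mutant-labelled seeds, at 0.487. Of the 24176 genes in that fit, 38.4% were called higher in the wild type and 27.4% in mutant-labelled seeds.

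Together, 4 of the 6 members passed the filter. Of the 3 that could be tested in both stratification comparisons (GPT1, PPT1 and XPT), 2 were called higher in each. Of all genes tested, 68.6% were called in wild-type and 58.6% in mutant-labelled stratification, 49.8% and 43.4% as higher, so a call by itself does not set these members apart. In dry seeds 0 of 4 members were called between genotypes in limma, and their unadjusted p ran from 0.277 to 0.627. The background there was 0.0462% of genes called, with 227 genes at an unadjusted p under 0.05.

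**Figure D4:**
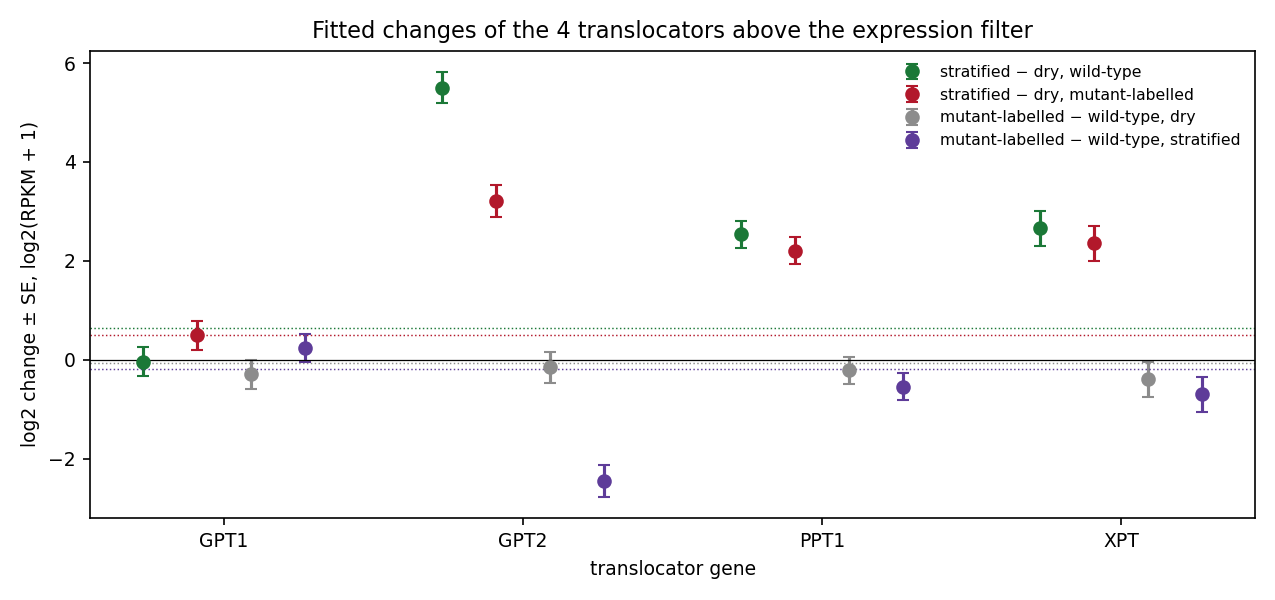
Fitted log2 difference with its SE (vertical axis) for the 4 translocators above the expression filter (horizontal axis) in 4 comparisons, with dotted lines at the median of all genes tested. GPT2 stands at 5.50 and 3.21 for stratification, PPT1 and XPT at 2.2 to 2.66, and GPT1 at -0.04 and 0.49, and all 4 lie near 0 between genotypes in dry seeds.

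The order of levels, per kilobase, was the same in the 2 dry groups: GPT1, then PPT1, XPT, GPT2 and TPT, with PPT2 at 0. XPT and GPT2 did not overlap in wild-type dry seeds and did overlap in mutant-labelled dry seeds. In wild-type stratified seeds the order was GPT2, PPT1, GPT1 and XPT, and GPT1 and XPT overlapped. In mutant-labelled stratified seeds GPT1 (27.7 ± 7.89 RPKM, SD, n = 3), PPT1 (25.9 ± 8.5) and GPT2 (20.5 ± 10.4) overlapped. XPT (12.1 ± 5.48) overlapped with GPT2 and PPT1. Within each of these 3 libraries GPT2 was below GPT1 and PPT1.

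Genes of the pathways these carriers feed were counted in 9 lists of 126 genes. The filter of 1 RPKM in 3 libraries could be met by stratified libraries alone, for list genes and all genes alike. A gene under 1 RPKM in every dry library entered that way, so its rise was largely set by entry. In starch synthesis this held for APL3, GBSS1, SBE2.2 and ISA2. In fatty acid synthesis it held for ENO1, PDH-E1 BETA, LTA2, LPD1, BCCP1 and MOD1. Elsewhere below it held for GWD1, EPSPS, XK-1, FBA2, BASS2, DIN10 and BZIP11. With the libraries scaled to each other in the 3 other ways (median centring, quantile normalization and TMM-style scaling), the background of all genes tested was more even. In the wild type 38.8%, 36.7% and 39.0% were then called higher and 36.7%, 38.0% and 38.9% lower. In mutant-labelled seeds these were 32.9%, 32.4% and 36.3% higher and 33.8%, 35.0% and 35.5% lower. Of the starch synthesis genes, which use the imported glucose 6-phosphate, most were called higher after stratification. Of the 14 tested among 16, 11 rose in the wild type and 10 in mutant-labelled seeds and none fell, against a background of 49.8% and 43.4% called higher. Their median log2 change was 1.97 and 1.31, against 0.64 and 0.50 for all genes tested. Under the 3 other scalings 1 or 2 of the 14 were called lower. The 3 not called in the wild type were the starch synthases SS2, SS3 and SS4, at 0.45, 0.42 and 0.08 (limma adjusted p from 0.109 to 0.826). APL3, a large subunit of ADP-glucose pyrophosphorylase, was at 0, 0.0211 and 0 RPKM in wild-type dry libraries and at 30.5, 38.0 and 12 in stratified ones. In mutant-labelled seeds it was at 0.0804, 0.0260 and 0 RPKM dry and 8.69, 10.6 and 4.61 stratified. Limma gave APL3 a rise of 4.65 ± 0.34 in the wild type and of 3.05 ± 0.34 in mutant-labelled seeds, with adjusted p of 6.85e-09 and 1.44e-06. SS1, a starch synthase, rose by 3.05 ± 0.36 and 2.60 ± 0.36, with adjusted p of 1.33e-06 and 1.35e-05. PGI1, which turns fructose 6-phosphate into glucose 6-phosphate inside the plastid, went from 2.02 ± 0.242 to 19.2 ± 6.24 RPKM in the wild type (SD, n = 3) and from 1.90 ± 0.110 to 11 ± 3.15 in mutant-labelled seeds. APL4, another large subunit, stayed below the filter at 1.26 ± 0.561 RPKM in wild-type stratified seeds.

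Starch breakdown genes went both ways. Of 11 tested among 13, 7 rose and 3 fell in the wild type, and 3 rose and 3 fell in mutant-labelled seeds. Of all genes tested, 49.8% and 43.4% were called higher and 18.9% and 15.2% lower. GWD1, the glucan water dikinase that starts starch breakdown, rose by 3.24 ± 0.32 and 2.41 ± 0.32 (adjusted p of 1.78e-07 and 8.53e-06 in limma). BAM1, a plastid beta-amylase, fell from 239 ± 4.69 to 22.1 ± 4.16 RPKM in the wild type and from 163 ± 24.2 to 27.7 ± 19.2 in mutant-labelled seeds (SD, n = 3). Its limma adjusted p was 4.37e-07 and 9.27e-06. BAM4, a relative that regulates starch breakdown, fell by 1.94 and 1.65 on the log2 scale. The stratified libraries of up to 10% ribosomal RNA, an alternative added after the data were seen, gave 7 rises in mutant-labelled seeds too, where 63.0% of all genes were called higher. In mutant-labelled seeds 6 rose without mutant-labelled stratified library 3, where 54.2% of all genes were called higher. Without wild-type stratified library 3 the count was 5, and 47.9% of all genes were called higher.

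Plastid fatty acid synthesis, from phosphoenolpyruvate or imported hexose phosphate, followed. Of 20 tested among 22, 19 rose in the wild type and 18 in mutant-labelled seeds, with none lower and medians of 2.17 and 1.70. Of all genes tested, 49.8% and 43.4% were called higher, with medians of 0.64 and 0.50. Under the 3 other scalings 16 to 18 were called higher in each genotype and 1 was called lower. There 36.7% to 39.0% of all genes in the wild type and 32.4% to 36.3% in mutant-labelled seeds were called higher. That count of 1 lower was also reached without wild-type stratified library 2, in both genotypes, and in mutant-labelled seeds without wild-type stratified library 3 or mutant-labelled stratified library 2. In those fits 15.6% to 20.6% of all genes were called lower. MOD1, the enoyl reductase, was at 0.688 ± 0.189 RPKM dry and 28.1 ± 14.3 stratified in the wild type, and at 0.430 ± 0.0387 and 11.4 ± 2.82 in mutant-labelled seeds. PDH-E1 ALPHA, of the plastid pyruvate dehydrogenase, rose by 3.22 ± 0.31 and 2.93 ± 0.31 (adjusted p of 1.11e-07 and 6.62e-07 in limma). BCCP1, the biotin carrier of acetyl-CoA carboxylase, rose by 3.19 ± 0.33 in the wild type (adjusted p of 2.62e-07), from 0.308 to 12.4 RPKM.

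The shikimate pathway, fed by PPT1, had 5 of 10 genes higher and 2 lower in each genotype, and 3 or 4 lower under the 3 other scalings. These shares are near those of all genes, of which 49.8% and 43.4% were called higher and 18.9% and 15.2% lower, with the shares under the other scalings given above. In mutant-labelled seeds 1 was lower without dry library 3 or stratified library 1 or 3, with 11.8% to 12.8% of all genes called lower. EPSPS, which joins phosphoenolpyruvate to shikimate 3-phosphate, rose by 2.78 ± 0.28 and 2.07 ± 0.28 (adjusted p of 2.02e-07 and 9.57e-06 in limma). For the entry enzyme the copies moved in opposite directions: DHS1 went from 4.76 ± 0.324 to 26.0 ± 7.68 RPKM and DHS2 from 98 ± 4.18 to 27.0 ± 4.66 in the wild type (SD, n = 3). DHS1 rose by 2.18 ± 0.28 and DHS2 fell by 1.83 on the log2 scale, with adjusted p of 3.07e-06 and 4.38e-05. In mutant-labelled seeds DHS1 rose by 1.83 ± 0.28 and DHS2 fell by 1.63.

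The pentose phosphate pathway, to which both GPT and XPT substrates belong, had 6 of 16 genes higher and 2 lower in each genotype, with medians of 0.13 and 0.12, below those of all genes. Of all genes tested, 49.8% and 43.4% were called higher and 18.9% and 15.2% lower. Under the 3 other scalings 9 of 16 were called lower in the wild type and 5 or 6 in mutant-labelled seeds, against 36.7% to 38.9% and 33.8% to 35.5% of all genes. The transketolases crossed over: TKL1 rose by 1.77 ± 0.27 and 2.18 ± 0.27 (adjusted p of 2.02e-05 and 4.13e-06 in limma). TKL2 fell from 80.8 ± 4.01 to 9.89 ± 5.65 RPKM in the wild type and from 60.9 ± 5.84 to 15.4 ± 5.47 in mutant-labelled seeds, with adjusted p of 5.32e-07 and 8.7e-05. RPI3, a plastid ribose phosphate isomerase, rose by 2.70 ± 0.32 and 2.34 ± 0.32 (adjusted p of 1.22e-06 and 1.03e-05). XK-1, whose name marks it as xylulose kinase-like, rose from 0.0496 to 3.83 ± 2.99 RPKM in the wild type (adjusted p of 8.82e-05).

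Calvin cycle and sucrose synthesis genes, which surround TPT in leaves, had a median log2 change of 0.41 and 0.08. Of 11 tested among 14, 4 rose and 1 fell in the wild type and 2 rose and 1 fell in mutant-labelled seeds. Of all genes tested, 49.8% and 43.4% were called higher and 18.9% and 15.2% lower, with medians of 0.64 and 0.50. Other scalings raised the lower calls to between 4 and 7. Under them 36.7% to 38.9% of all genes in the wild type and 33.8% to 35.5% in mutant-labelled seeds were called lower. The rises became 2 in the wild type without dry library 3 or stratified library 2, with 45.1% and 43.9% of all genes called higher. In mutant-labelled seeds they became 1 without dry library 2 or stratified library 1 or 2, with 34.8% to 36.7% of all genes called higher. They became 4 without stratified library 3, with 54.2% called higher. The 1 wild-type fall was lost without any 1 dry library or without stratified library 3, with 16.3% to 19.2% of all genes called lower. Mutant-labelled falls became 2 without stratified library 2 or wild-type stratified library 3, with 20.6% and 16.9% called lower. FBA2, a plastid aldolase, was at 0.188 RPKM dry and 32.7 ± 26.1 stratified in the wild type, and 0.216 and 6.62 ± 2.47 in mutant-labelled seeds. Of 11 other plastid envelope carriers, all tested, 9 rose and 2 fell in the wild type and 8 rose and 1 fell in mutant-labelled seeds. Their background was the same 49.8% and 43.4% of all genes called higher and 18.9% and 15.2% lower. The wild-type falls became 1 without any 1 dry library or without stratified library 1 or 2, with 15.7% to 18.2% of all genes called lower. BASS2, which brings pyruvate into plastids with sodium, rose by 3.72 ± 0.47 and 2.31 ± 0.47 (adjusted p of 2.23e-06 and 0.000459 in limma). NTT2, the ATP/ADP carrier, went from 37.1 ± 1.98 to 212 ± 65.9 RPKM in the wild type and from 29.6 ± 2.29 to 150 ± 55.3 in mutant-labelled seeds. PGLCT, the glucose transporter of the envelope, fell by 1.46 on the log2 scale in the wild type (adjusted p of 0.000255) and by 0.98 in mutant-labelled seeds (0.00817).

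Relatives of the family in the Golgi carry nucleotide sugars, and 8 of the 11 listed were tested. In the wild type 7 of the 8 were called higher and in mutant-labelled seeds 5, against 49.8% and 43.4% of all genes tested. Under the 3 other scalings 5 or 6 were called higher in the wild type and 2 or 3 in mutant-labelled seeds. Of all genes, 36.7% to 39.0% and 32.4% to 36.3% were called higher there. The count in mutant-labelled seeds was also 1 to 3 when any 1 of mutant-labelled dry libraries 1 to 3 or stratified libraries 1 and 2 was left out. In those fits 34.8% to 39.1% of all genes were called higher. URGT3 rose by 2.05 ± 0.28 and 2.07 ± 0.28 (adjusted p of 6.18e-06 and 1.02e-05 in limma). Of 11 sugar status genes tested among 13, 3 rose and 5 fell in each genotype, and 7 or 8 were called lower under the 3 other scalings. Of all genes tested 49.8% and 43.4% were called higher and 18.9% and 15.2% lower. Under the other scalings 36.7% to 38.9% and 33.8% to 35.5% were called lower. DIN6, an asparagine synthetase that is high in starved and dark tissue, fell from 213 ± 6.91 to 3.79 ± 3.59 RPKM in the wild type and from 154 ± 22.8 to 12.2 ± 9.60 in mutant-labelled seeds. DIN10, another gene named for induction in the dark, rose by 4.83 ± 0.48 and 3.68 ± 0.48 (adjusted p of 1.76e-07 and 6.8e-06 in limma). ERF109 stayed below the filter, at 0.141 ± 0.0389 RPKM in wild-type stratified seeds.

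**Figure D5:**
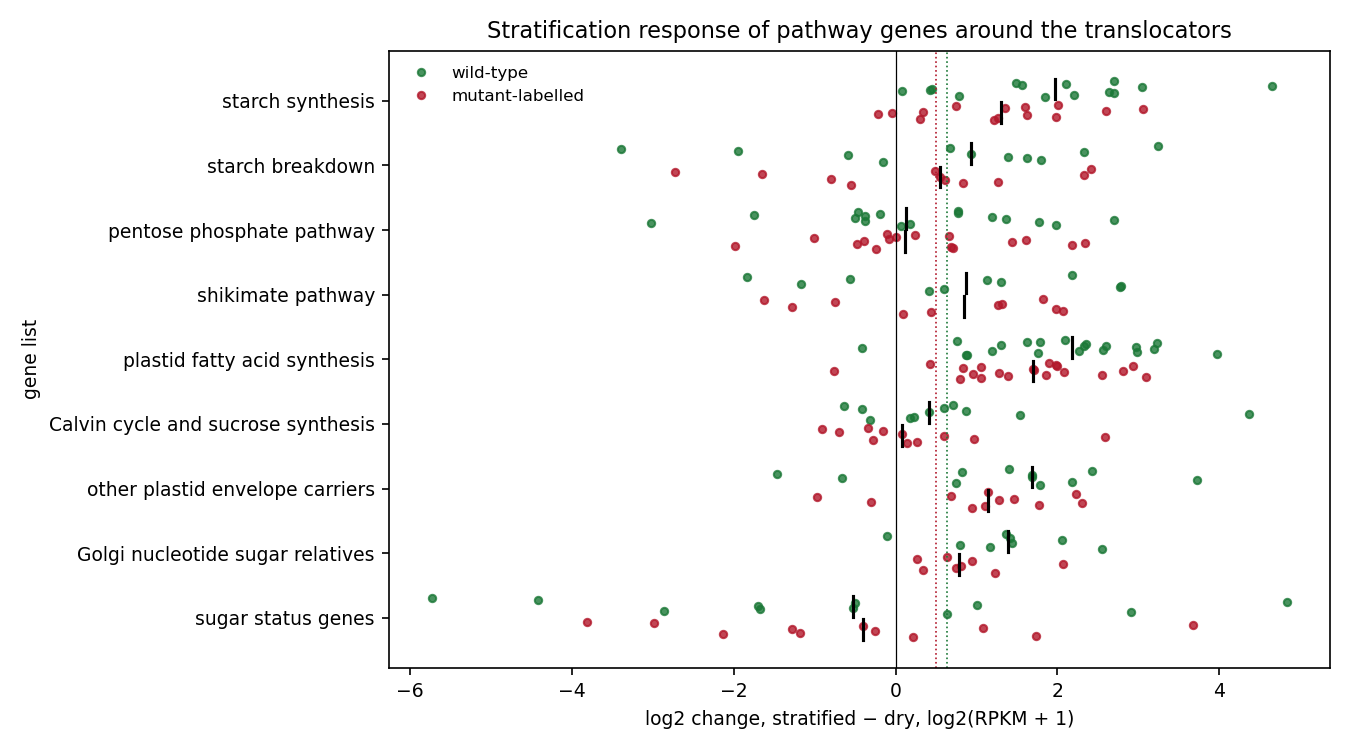
Log2 change on stratification (horizontal axis) of each tested gene in the 9 lists (vertical axis), with a bar at each list's median and dotted lines at the medians of all genes tested. Fatty acid synthesis has its medians at 2.17 and 1.70 and starch synthesis at 1.97 and 1.31, while sugar status genes have theirs at -0.52 and -0.40.

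Between genotypes, no gene of the 9 lists was called in limma in dry or in stratified seeds. In stratified seeds 0 of 14 starch synthesis genes lay above 0, and the median was -0.65, against -0.19 for all genes tested. For fatty acid synthesis it was -0.63, with 1 of 20 above 0. Most other lists leaned the same way, with 0 of 10 shikimate, 1 of 11 Calvin cycle, 1 of 11 carrier and 1 of 8 Golgi genes above 0. Above 0 lay 2 of 11 starch breakdown, 5 of 16 pentose phosphate and 6 of 11 sugar status genes. The share of all genes above 0 was not counted, so these counts cannot be set against a background. The median of all genes tested was 0.085 with ribosomal RNA left out and -0.012, 0.0013 and 0.011 under the 3 other scalings. List medians were not taken on those scales, so how far the lean is shared by all genes was not tested. The nearest to a call was APL3, at -1.55 ± 0.34 with an adjusted p of 0.0806, which ran from 1.97e-07 to 0.448 over the alternatives and was under 0.05 in 7 of them. These counts turn on wild-type stratified library 3. Without it, 12 starch synthesis and 12 fatty acid synthesis genes were called lower in limma, as were 24.3% of all genes tested, with 5.48% higher. The split by ribosomal RNA, added after the data were seen, gave 10 and 13 lower calls with the 3 libraries of up to 10%, where 16.1% of all genes were called lower and 19.8% higher.

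The genes whose levels were most like that of GPT2 were named by Pearson's r of log2(RPKM + 1), as a description over libraries that share the step from dry to stratified. Over all 12 libraries, among 10786 genes with at least 5 RPKM in some group, 37 had r above 0.98. The closest were CIPK9, a calcium-regulated protein kinase (0.991), PSK6, a phytosulfokine precursor (0.990), AT1G28650, a GDSL esterase (0.990), and GBSS1, the granule-bound starch synthase (0.990). PAR2 and BZIP11, both transcription factors, followed at 0.988. GBSS1 and BZIP11 are also in the lists above. Of the family, PPT1 had an r of 0.968 with GPT2, XPT 0.946 and GPT1 0.243. Over the 6 stratified libraries alone, CIPK9 (0.985) and PSK6 (0.976) were again closest, followed by AT5G05365 (0.973), AT5G01780 (0.959), AT1G64490 (0.958) and AT1G28650 (0.957). AT5G01780 is the locus that was low in all mutant-labelled libraries. These 6 libraries share the genotype difference for which GPT2 was chosen, so a gene lower in the mutant-labelled ones tends to have a high r here. There PPT1 had an r of 0.846, XPT 0.659 and GPT1 -0.29.

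CIPK9 was at 1.0 RPKM in wild-type dry, 9.11 in wild-type stratified, 0.74 in mutant-labelled dry and 4.48 in mutant-labelled stratified seeds, as group means. AT5G05365, a protein of the heavy metal transport superfamily, was at 0 in both dry groups and at 16.7 and 2.36 RPKM in wild-type and mutant-labelled stratified seeds. For PPT1 the most like genes were RPL6B, a ribosomal protein, and AT1G51570, both at 0.997, and for XPT AT1G01320 (0.998) and CPN60A1, a chloroplast chaperonin subunit (0.996). PPT1 had 1207 genes above 0.98 and XPT 560, against 37 for GPT2. GPT1 had none above 0.98, its closest being the kinase STY13 (0.945) and the proteasome subunit RPN10 (0.941).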

How the data were processed

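Messenger RNA was purified with oligo-dT beads and made into stranded libraries, per the labels' protocols. The authors deposited RPKM per locus. STAR, DESeq2 and TAIR10 appear in the submitters' processing notes. How strand and multiply matching reads were counted is not given in the sources used here. Each library's depth was read from the steps between RPKM values below 2, of which 99.3% (94891 values) were whole numbers of reads to within 0.05. No count test was run, since RPKM are not counts. The test was limma 3.58.1 (R 4.3.3), 2-sided, on log2 of RPKM plus 1, with all 12 libraries in 1 model of 4 group means, a trended prior variance and 8 residual degrees of freedom. A gene entered if it reached 1 RPKM in 3 or more libraries (15145 genes), and Benjamini-Hochberg adjustment ran over these within each comparison, at a threshold of 0.05. The labels do not say whether libraries came from separate plants or seed lots, so p-values measure only the spread between these libraries, which may be technical. Replicates differed by more than sampling noise (chi-square per degree of freedom from 3.07), so none was merged.

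The members and lists were chosen with earlier results of these data known. In each list, up to 3 called genes per comparison and direction with the largest log2 change could be named, with APL3, APL4 and ERF109 whatever their result. RBCS1A, PSBO1, EXPA2, EPR1, MAN7, MAN2, MAN6, MUM4, SS2, SS3 and SS4 were named after their values were seen. The genes most like each member were the 6 (GPT2) or 2 with the highest r. In the lists 1 gene was dropped, since the reference does not carry its name. The lists overlap no member. Sequences and positions are from RefSeq's TAIR10.1. Sequences were aligned with Biopython 1.88 and blastn 2.17.0. Alternatives were another pseudocount, no filter, median centring, quantile normalization, TMM-style scaling, ribosomal RNA left out, the 2 groups alone, a replicate term, subsets of libraries by ribosomal RNA and each library left out. The fit was tested on simulated data.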

Additional observations from a re-analysis of the deposited data

How the results depend on the processing

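Of 3805 values recomputed under 22 alternatives, 3557 kept their side of the threshold or lay within 1.5 times or 1 SD of the value reported. For single genes, direction was compared only where a value was called in either fit, and no value that was called changed sign. The GPT1 change, not called in the fit reported, changed sign under 4 alternatives in wild-type and 1 in mutant-labelled stratification. PPT1 and XPT were called higher under every alternative in both genotypes (PPT1 from 1.66 to 2.82, XPT from 1.77 to 3.10), and no member was called in dry seeds under any. GPT1 ranged from -0.78 to 0.33 in wild-type and from -0.09 to 1.02 in mutant-labelled stratification. It was called lower in the wild type with median centring (-0.61), quantile normalization (-0.52) and TMM-style scaling (-0.78), and higher in mutant-labelled seeds with ribosomal RNA left out (1.02), with the stratified libraries of up to 10% ribosomal RNA (0.69) and without mutant-labelled stratified library 3 (0.74). With ribosomal RNA left out, the median of all genes in mutant-labelled stratification was itself 0.90, and 66.7% were called higher. Without mutant-labelled stratified library 3 these were 0.73 and 54.2%, and with the libraries of up to 10% ribosomal RNA the median was 0.82. The 3 scalings moved the median of all genes by -0.57, -0.65 and -0.61 in wild-type stratification and brought the share of calls that were higher from 72.5% to 51.4%, 49.2% and 50.1%. In mutant-labelled seeds that share went from 74% to 49.3%, 48.1% and 50.6%. The GPT2 difference on wild-type stratification was 6.17 with a pseudocount of 0.1, 4.93 with median centring, 4.73 with quantile normalization, 4.84 with TMM-style scaling and 4.96 with the stratified libraries of over 10% ribosomal RNA. In mutant-labelled seeds it was 3.91 with a pseudocount of 0.1. Genes called between genotypes in dry seeds (7) became 4 with a pseudocount of 0.1, 20 with quantile normalization, 29 with TMM-style scaling, 30 with the 2 groups alone, 84 and 102 with the stratified libraries over and up to 10% ribosomal RNA, and 3 to 18 with 1 library left out. In stratified seeds (32) they became 18 with a pseudocount of 0.1, 72 with no filter, 116 with median centring, 313 with quantile normalization, 173 with TMM-style scaling, 1549 with ribosomal RNA left out, 145 with the 2 groups alone, 128 and 5426 with the libraries over and up to 10% ribosomal RNA, and 12 to 4505 with 1 library left out, the highest without wild-type stratified library 3. The cause was not tested. The share of these calls that were higher in mutant-labelled seeds was 18.8% in the fit reported, 43.1%, 48.2% and 45.7% under the 3 scalings, 89.2% with ribosomal RNA left out, 55.2% with the libraries of up to 10% and 18.4% without wild-type stratified library 3. Same-numbered libraries correlated at -0.32 to 0.20 over 18 pairs, 2 of them over 0.1, and 5 of 18 correlated best with their own number. The 2 over 0.1 were libraries 2 and 3 of the stratified groups, at 0.17 and 0.20, while libraries 1 had -0.23. Correlations this weak cannot settle whether the numbers pair the libraries. The replicate block gave 304 calls in stratified seeds, 7.57% of them higher, and 7 in dry seeds. Of 45 named list genes, 10 lost a call under at least 1 alternative, and UTR3, DIT2.2, SBPASE and SK1 did so most often. Depth limits TPT and PPT2, which rest on 81 reads or fewer per library.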
